A study of Rattus norvegicus with 40 samples.

Results

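Cytosolic ribosomal protein genes encode the proteins that, with ribosomal RNA, make up the large and small subunits of the ribosome in the cytosol. In a study of rat brain by RNA sequencing, 87 of the 25958 gene identifiers of the 4 count tables belonged to this group. They were the protein-coding genes of the hippocampus table whose names follow the pattern of ribosomal proteins (Rpl, Rps and Rplp with a number), joined by identifier to the tables of amygdala, anterior cortex and cerebellum. The 87 identifiers carry 81 names, since Rpl21 has 4 identifiers and Rpl32, Rpl7a and Rps27a have several each. By name, 45 belong to the large subunit, 28 to the small subunit and 3 to the stalk (Rplp0, Rplp1, Rplp2), and 11 are paralogs or extra copies. They do not cover the whole ribosome, since Rps7, Rps13, Rps26, Rpl10a, Rpl23a and Rpl37, for example, are not among them. The hippocampus, amygdala, anterior cortex and cerebellum tables hold 87, 86, 86 and 84 of the members, and 84 have a row in all 4. The cerebellum table was made with other gene models than the other 3 tables for 6 of its 84 members and gives another name to 22 of them (Rps19l2 is LOC100910336 there), so members keep here the name of the hippocampus table.

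The tested rats were exposed to blast and the others were sham animals, both examined 12 months after exposure. Each region gave 5 blast and 5 sham libraries, 40 in all, made from total RNA of the whole region. The labels used here give tissue and treatment, and no strain, sex, age or blast dose. The library titles carry a number that recurs over regions, and nothing in the labels says that a number is an animal. Libraries are called here by B for blast or S for sham and that number (B4, B8, B22, B88 and B666, and S11, S13, S14, S15 and S33). One amygdala sham count column has a number that no title of that region has, so it is called unnumbered here. P-values therefore measure the spread between these libraries, which may in part be technical.

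A ribosome needs about equal numbers of nearly all its proteins, and their genes are transcribed at high levels in every tissue, neurons included. Their messenger RNAs typically begin with a C followed by a run of pyrimidines, the terminal oligopyrimidine tract, through which mTOR signalling and Larp1 control their translation. Ribosomal protein genes have also left many processed copies in mammalian genomes, some nearly identical to the parent gene, so reads can be split between a gene and its copy. Such members are uncertain in their single values, and they are set beside their copies where one is named alike.

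The sequence around the start of transcription was looked up in RefSeq promoters of the GRCr8 build. In that set 56 members had a promoter that matched by symbol and chromosome. Where a symbol had several promoters, the one with the lowest coordinate was taken, which need not be the main start. Windows of 60 bases, 40 before the start and 20 from it on, are shown for members that the results below describe one by one, 5′ to 3′ on the gene's strand. Capitals mark the longest run of C or T that touches the 11 bases around the start.
Rplp1, chr8:71290853-71290912 (minus strand): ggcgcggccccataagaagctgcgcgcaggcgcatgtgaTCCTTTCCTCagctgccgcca
Rplp0, chr12:46718371-46718430 (minus strand): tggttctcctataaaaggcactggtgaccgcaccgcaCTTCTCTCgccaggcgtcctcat
Rps4x, chrX:71342902-71342961 (minus strand): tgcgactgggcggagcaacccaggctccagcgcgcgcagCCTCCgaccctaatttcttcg
Rps2, chr10:14251808-14251867 (plus strand): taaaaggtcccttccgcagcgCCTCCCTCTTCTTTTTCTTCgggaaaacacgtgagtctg
Rps24, chr16:96477-96536 (plus strand): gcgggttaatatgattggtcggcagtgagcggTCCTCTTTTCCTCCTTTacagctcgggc
Rpl24, chr11:58128386-58128445 (minus strand): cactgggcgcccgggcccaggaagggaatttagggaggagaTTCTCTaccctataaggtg
Rpl7l1, chr9:21695678-21695737 (plus strand): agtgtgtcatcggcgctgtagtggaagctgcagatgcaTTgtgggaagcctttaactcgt
Rpl3, chr7:113507971-113508030 (minus strand): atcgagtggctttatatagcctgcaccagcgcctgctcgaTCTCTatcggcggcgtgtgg
Rps19, chr1:89608648-89608707 (plus strand): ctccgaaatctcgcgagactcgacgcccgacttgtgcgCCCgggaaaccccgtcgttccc

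The run was 20 bases long in Rps2, 17 in Rps24, 10 in Rplp1, 8 in Rplp0, 6 in Rpl24, 5 in Rps4x and Rpl3, 3 in Rps19 and 2 in Rpl7l1, whose product resembles Rpl7. Its median over the 56 member promoters was 8.5 bases, against 3 over all 33469 promoters of the set. A run of at least 5 bases was present in 36 member promoters (64.3%), against 30.8% of all promoters. The first transcribed base was C or T in 35 member promoters (62.5%), against 40.6% of all promoters. The letters CTTTC, searched on both strands from 20 bases before the start through the first 20 transcribed bases, occurred in 27 member promoters (48.2%) and in 9.87% of all promoters. The longer CTCTTTC, which contains the first motif, occurred in 8 member promoters (14.3%) and in 0.974% of all. These are descriptions of sequence in windows whose exact start is that of RefSeq.

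Not all members match RefSeq as single loci. RefSeq places 71 of the 87 on the chromosome that the tables give, 14 on another chromosome and 2 under no gene of that symbol. Of the 14 on another chromosome, 10 are one-exon models in the tables, among them Rpl30, Rpl38, Rps18, Rps29, Rps27a of chromosome 5 and Rpl21 of chromosomes 13, X and 3. The counts of those 10 rows belong to models without introns, away from the RefSeq gene of that name. The tables hold 14 one-exon models of ribosomal proteins in all.

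Library totals ran between 11268097 and 37128383 counts. Cerebellum markers (Pcp2, Cbln1, Gabra6 and others, 11 genes) summed to between 6322 and 6801 CPM, the count scaled to a common library total, in the cerebellum and to at most 141 elsewhere. Anterior cortex layer markers reached 375 to 651 CPM there and at most 259 elsewhere, and hippocampus markers reached 780 to 1144 CPM there and at most 537 elsewhere. Amygdala markers did not set the amygdala apart, with 146 to 195 CPM there and up to 251 in the anterior cortex. Several libraries stood apart over the ribosomal protein genes. Hippocampus sham S14 was the highest of its region for 67 of 77 members tested and sham S15 the lowest for 38. Anterior cortex blast B8 was the lowest of its region for 48 of 77 and sham S33 the highest for 44. In hippocampus sham S14 log2 CPM fell with gene length (slope -0.14 per doubling, relative to the region), and in anterior cortex blast B8, which had 16577 genes with a count, it climbed with length (slope 0.17), as it did in anterior cortex sham S15 (slope 0.16). In bulk tissue, fewer cells of a type and less RNA per cell cannot be told apart.

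The members' summed share of each library was about 1% in both treatments. In hippocampus it averaged 0.879% ± 0.050 in blast and 0.974% ± 0.317 in sham libraries (SD, n = 5 each, as throughout), and sham S14 alone held 1.53% against 0.763% to 0.902% in the other sham libraries. In amygdala it averaged 1.08% ± 0.06 in blast and 1.09% ± 0.06 in sham libraries. In anterior cortex it averaged 0.974% ± 0.190 in blast and 0.948% ± 0.171 in sham libraries, with blast B8 at 0.638% and the other blast libraries between 1.04% and 1.10%. In cerebellum it averaged 0.951% ± 0.055 in blast and 0.937% ± 0.082 in sham libraries. In amygdala, anterior cortex and cerebellum the means of the treatments differed by less than the SD of either group. In hippocampus they differed by more than the SD of blast and less than that of sham libraries.

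**Figure D1:**
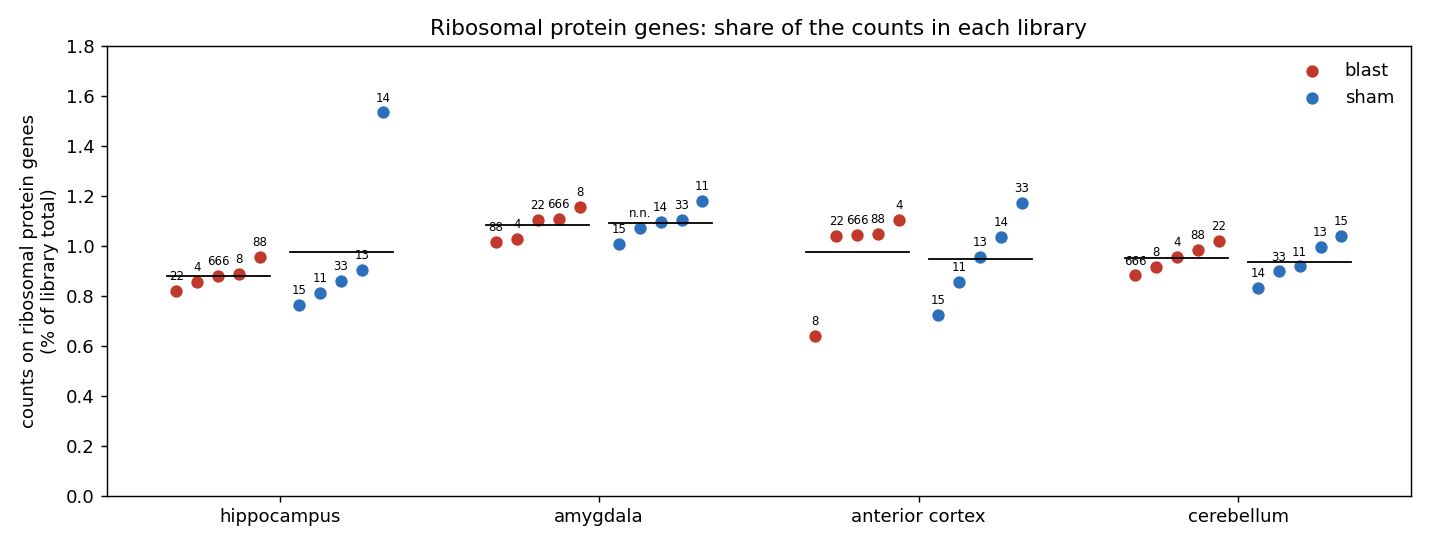
Share of each library's counts on the ribosomal protein genes, in percent of the library total, by region, with blast libraries left of sham libraries. Each point is 1 library with its title number (n.n., unnumbered), sorted by value, and lines are group means. Hippocampus sham S14 (1.53%) and anterior cortex blast B8 (0.638%) lie apart from the other libraries of their groups.

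Per kilobase of gene length, averaged over the groups, Rplp1 had the highest level of the members with 588 CPM per kilobase, Rpl35 had 406 and Rps23 had 379. Rplp1 is one of the acidic stalk proteins that recruit elongation factors, and Rpl35 and Rps23 belong to the large and small subunits. The same genes ranked 1, 3 and 4 by the deposited FPKM. Rpl3 came second by FPKM and 41st by CPM per kilobase. Its length is 1378 bases in the cerebellum table and 3506 bases in the others, where the deposited FPKM did not follow that length. The median member had 149 CPM per kilobase. Rplp0l1, Rpl30l1, Rpl35a and Rpl39 were the lowest, with 0.0207, 0.0811, 0.119 and 0.188 CPM per kilobase. Rpl35a and Rpl39 are names of core proteins of the large subunit, and the row of Rpl35a lies on another chromosome than in RefSeq. The row of Rpl39 is a one-exon model of 156 bases that begins at base 33721935 of chromosome X, in an unstated build. The RefSeq promoter window of Rpl39 begins at base 121195877 of that chromosome in GRCr8. The low values of both rows therefore may not be those of the RefSeq genes. Rpl8, also a core protein of the large subunit, had only 12.98 CPM per kilobase, rank 70 of 87. The paralogs known from muscle or testis in mouse and human were near 0, with 0.201 CPM per kilobase for Rpl3l (muscle), 0.563 for Rpl39l (testis) and 1.20 for Rpl10l (testis).

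Whether blast changed ribosomal protein genes was tested in each region with edgeR's quasi-likelihood test, with p-values adjusted by Benjamini-Hochberg over all genes tested. After the filter on low counts, 77, 79, 77 and 77 members were tested in hippocampus, amygdala, anterior cortex and cerebellum. No member passed an adjusted p of 0.05 in any region, by edgeR, DESeq2 or limma voom. The same edgeR fits called no gene at all, 0.0% of 15059, 15280, 14918 and 14769 genes. The results below are therefore values with their errors, ordered by region and then by subunit, and none of them is a changed gene.

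In hippocampus, 7 members had a higher and 70 a lower estimate in blast. Their median log2 fold change was -0.14, against 0.00 over all genes tested. The balance rested on sham S14. Without that library, an alternative chosen after its values were seen, 12 of the members tested had a lower estimate and the median was 0.08. By subunit the medians with all libraries were -0.13 for 41 large-subunit members, -0.15 for 27 small-subunit members, -0.24 for the 3 stalk proteins and -0.11 for 6 paralogs or extra copies. At an unadjusted p of 0.05, 2 members were higher and 0 lower, where 0.97% of all genes were higher and 0.916% lower. No member had all blast libraries on one side of all sham libraries, which 0.126% of all genes had above and 0.146% below. Choroid plexus markers varied widely, with sums between 51.3 and 8339 CPM in blast and between 14.8 and 5029 CPM in sham hippocampus libraries. Without blast B8 and B666 and sham S11, the libraries high in those markers, 69 members had a lower estimate and the median was -0.21.

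The members at an unadjusted p of 0.05 in hippocampus were Rps19 and Rpl8. Rps19, a small-subunit protein whose human gene is mutated in Diamond-Blackfan anaemia, had 55.6, 137, 35.1, 19.2 and 95.2 CPM in blast B4, B8, B22, B88 and B666, against 14.4, 23.0, 32.8, 13.9 and 20.9 CPM in sham S11, S13, S14, S15 and S33. Blast B8 and B666 were high and blast B88 lay inside the sham range. Its log2 fold change was 1.70 ± 0.46 (SE; edgeR adjusted p = 0.998). Rpl8 had 95.2 CPM in blast B88 alone, 4.26 to 5.70 CPM in the other blast libraries and 1.89 to 6.47 CPM in sham libraries. Its log2 fold change of 2.53 ± 0.93 (edgeR adjusted p = 0.998) was 0.28 without blast B88. Behind these, Rps10l1 had a higher estimate (0.74 ± 0.39), and Rps10 (-0.44 ± 0.22), Rps9 (-0.99 ± 0.52) and Rps12 (-0.34 ± 0.19) had lower ones.

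In amygdala, 31 members had a higher and 48 a lower estimate in blast, with a median of -0.04, against 0.00 over all genes. The medians were -0.02 for 42 large-subunit members and -0.06 for 27 small-subunit members. At an unadjusted p of 0.05, 2 members were higher and 5 lower, where 4.22% of all genes were higher and 4.46% lower. One member, Rpl3, had all blast libraries below all sham libraries and none had them above, where 0.733% of all genes were below and 0.785% above.

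Among the large-subunit members, Rpl3, which lies near the peptidyl transferase centre, had 386, 412, 413, 414 and 415 CPM in amygdala blast libraries, against 441, 483, 424, 476 and 439 CPM in sham libraries. Blast B4 was the lowest, and the nearest libraries of the groups were 415 CPM in blast B666 and 424 CPM in sham S15. The log2 fold change was -0.15 ± 0.05 (edgeR adjusted p = 0.504). In the authors' deposited table Rpl3 also had the smallest adjusted p of the members, 0.113, with a log2 fold change of -0.14. Rpl19 had -0.17 ± 0.06 and Rpl4 -0.13 ± 0.06, with overlapping groups. Of the small subunit, Rps27l, a paralog of Rps27 known as a p53 target in human cells, had 5.998, 5.95, 6.61, 4.34 and 7.02 CPM in blast, against 5.47, 3.801, 4.71, 2.66 and 3.63 CPM in sham libraries. Blast B88 alone lay inside the sham range, and the log2 fold change was 0.57 ± 0.20 (edgeR adjusted p = 0.504). Rps6, the target of S6 kinase, had 29.0, 3.15, 4.32, 57.5 and 3.38 CPM in blast, against 85.7, 2.95, 93.0, 76.0 and 70.4 CPM in sham libraries. It was between 2.95 and 4.32 CPM in 3 blast libraries and in sham S14, and its log2 fold change was -1.74 ± 0.78 (edgeR adjusted p = 0.561). Rps14 had -0.19 ± 0.09, and Rps27a of chromosome 14, which encodes ubiquitin fused to a small-subunit protein, had 0.62 ± 0.25. Rpl41 had 0.21 ± 0.11 and did not reach an unadjusted p of 0.05.

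In anterior cortex, 37 members had a higher and 40 a lower estimate in blast, with a median of -0.01, against 0.00 over all genes. Without blast B8, also chosen after its values were seen, 26 had a lower estimate and the median was 0.15. Without blast B8 and sham S11, S13 and S15 together the median was -0.10, and it was -0.10 with the trend of each library with gene length removed. The sign of the median thus depended on which libraries were kept. At an unadjusted p of 0.05, 0 members were higher and 2 lower, where 1.88% of all genes were higher and 2.43% lower. No member's groups were free of overlap, where 0.375% of all genes had all blast libraries above and 0.268% below. The members at that p were Rps3a, a small-subunit protein, with 270, 234, 260, 262 and 286 CPM in blast, against 351, 352, 255, 305 and 336 CPM in sham libraries, and Rpl3 with 372, 429, 337, 336 and 355 CPM in blast, against 474, 536, 347, 488 and 423 CPM in sham libraries. In both genes sham S14 lay among the blast libraries. The log2 fold changes were -0.29 ± 0.12 for Rps3a and -0.31 ± 0.13 for Rpl3 (edgeR adjusted p = 0.799 for both). Rpl7l1 had -0.28 ± 0.13. The higher estimates with the smallest p were those of Rps10l1 (0.87 ± 0.44), Rps27l (0.50 ± 0.37) and Rps27a of chromosome 14 (0.40 ± 0.31).

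In cerebellum, 49 members had a higher and 28 a lower estimate in blast, with a median of 0.02, against 0.00 over all genes. Sham S15 was the highest of the region for 39 of 77 members and sham S14 the lowest for 33. Without sham S15 there were 15 members with a lower estimate, and without sham S14 there were 49. At an unadjusted p of 0.05, 2 members were higher and 3 lower, where 2.81% of all genes were higher and 1.81% lower. One member, Rps27l, had all blast libraries above all sham libraries and none had them below, where 0.42% of all genes were above and 0.311% below.

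Rps27l had 5.45, 5.43, 6.01, 6.17 and 8.92 CPM in cerebellum blast libraries, against 4.598, 5.07, 3.58, 4.81 and 4.18 CPM in sham libraries. Blast B666 stood above the rest, and the log2 fold change was 0.52 ± 0.17 (edgeR adjusted p = 0.960). Rps19 had 43.7, 104, 67.1, 130.5 and 36.8 CPM in blast, against 22.6, 2.33, 39.7, 22.1 and 35.6 CPM in sham libraries. Blast B666 lay inside the sham range, sham S13 was far below every other library, and the log2 fold change was 1.66 ± 0.49 (edgeR adjusted p = 0.960). Rpl8 had 3.87 to 5.85 CPM in blast libraries, 109 CPM in sham S11 and 5.24 to 8.53 CPM in the other sham libraries. Its log2 fold change was -2.48 ± 0.84 and -0.35 without sham S11. Rps10 had -0.15 ± 0.05 (edgeR adjusted p = 0.974), and Rpl21 of chromosome 12 had -0.41 ± 0.18 (edgeR adjusted p = 0.999). Rps10l1 had 0.78 ± 0.41.

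**Figure D2:**
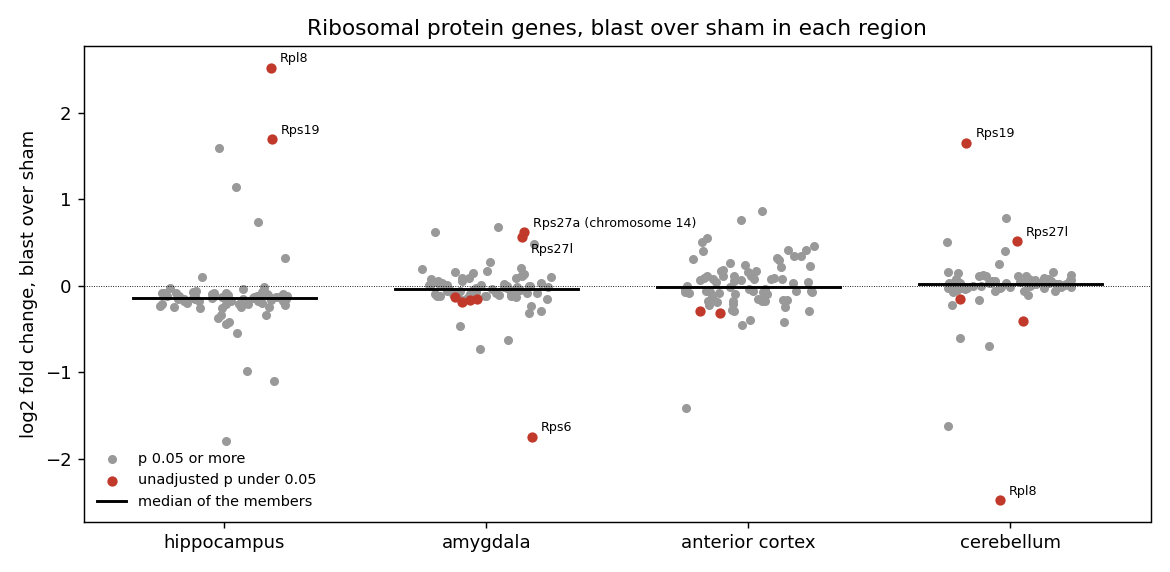
Log2 fold change of blast over sham for each ribosomal protein gene tested in a region. Each point is 1 gene, spread sideways at random, red points have an unadjusted p under 0.05 and lines are medians of the members (-0.14, -0.04, -0.01 and 0.02). Most members lie close to 0, Rpl8 is farthest out in hippocampus and cerebellum and Rps6 in amygdala, and no point passed an adjusted p of 0.05.

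Averaged over the 4 regions in one fit of 40 libraries, 0 of 79 members were called at an adjusted p of 0.05 by edgeR and by limma voom, where edgeR called 2 of 16378 genes (0.0122%). The median of the members was -0.05, and 53 of 79 had a lower estimate. At an unadjusted p of 0.05, 3 members were higher and 7 lower, where 3.82% of all genes were higher and 5.66% lower. Rpl3 had the smallest p, with a mean log2 fold change of -0.17 ± 0.05 (edgeR adjusted p = 0.201). The others lower at that p were Rps3a (-0.15 ± 0.05), Rpl4 (-0.12 ± 0.05), Rps10 (-0.22 ± 0.10), Rpl19 (-0.13 ± 0.06), Rpl7 (-0.11 ± 0.05) and Rpl26 (-0.14 ± 0.07). Rps10l1 (0.75 ± 0.23), Rps19 (0.69 ± 0.24) and Rps27l (0.37 ± 0.14) had higher estimates at that p. This fit takes the libraries of 1 title number as independent. For Rps10l1, 82.2% of the spread within groups went with the number, so its standard error here may be too small.

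When each title number was given the mean of its regions after centring each region (a description chosen after the values were seen, without the unnumbered library), all 5 blast numbers lay below all 5 sham numbers for Rpl3 and Rps3a. No member had all blast numbers above. Over all genes, 0.928% had all blast numbers below and 0.672% above. For Rpl3 the blast numbers lay between -0.13 and -0.02 and the sham numbers between 0.02 and 0.13 on the log2 scale. For Rps10l1 the blast numbers averaged 0.36 ± 0.88 and the sham numbers -0.33 ± 0.61 on that scale (SD, n = 5 each), and their ranges overlapped, as did those of Rps19 and Rps27l.

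Whether the difference between blast and sham varied over regions was tested as an interaction in the same fit. It was called for 0 of 79 members and for 0.0% of 16378 genes by edgeR. At an unadjusted p of 0.05, 2 members passed, where 4.76% of all genes did. These were Rpl8 (edgeR adjusted p = 0.904) and Rps19 (edgeR adjusted p = 0.905). The values of Rpl8 rested on single libraries in hippocampus and cerebellum. For Rps19 most blast libraries lay above every sham library in those regions, and its direction in amygdala turned when single libraries were left out.

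A second feature of the family was the swing of some members between libraries. The rule of the group names Rps19 and Rpl8 for this swing, so their ratios are a description and not a finding. The ratios given first were taken over all libraries of a region, blast and sham together. Within a region the ratio of the highest to the lowest CPM reached 1655 for Rps19l2 in cerebellum, 140 for Rplp2 in hippocampus, 72.7 for Rps6 in anterior cortex, 55.9 for Rps19 in cerebellum, 50.3 for Rpl8 in hippocampus and 46.0 for the Rpl7a identifier ENSRNOG00000047737 in hippocampus. At the other end, Rpl7l1 and Rpl3 stayed within ratios of 1.49 and 1.59 in every region. Over the family the comparison with all genes depended on the measure. The SD of log2 CPM within groups was over 0.5 for 24 of the 79 members, against 24.8% of all genes, and its median was 0.31 for members and 0.28 for all genes. The biological coefficient of variation that edgeR estimates per gene was over 50% for 7 of 77 members in hippocampus, against 4.16% of all genes, for 3 of 79 in amygdala, against 1.49%, for 7 of 77 in anterior cortex, against 8.22%, and for 5 of 77 in cerebellum, against 1.69%. Among genes over 64 CPM its median was 20.7% for members and 13.2% for all genes in hippocampus, 8.18% and 8.16% in amygdala, 22.3% and 18.2% in anterior cortex, and 9.14% and 6.85% in cerebellum.

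Rps19 and Rps19l2, a paralog by name with a gene of similar span on another chromosome (chromosome 9 from 16802319 to 16807966, against chromosome 1 from 81750928 to 81756627, in the tables' coordinates, of an unstated genome build), ran opposite to each other. In cerebellum sham S13 Rps19 had 2.33 CPM and Rps19l2 had 109 CPM. In cerebellum blast B88 Rps19 had 130.5 CPM and Rps19l2 had 0.0656 CPM, a single count. In anterior cortex sham S33 Rps19 had 195.5 CPM and Rps19l2 had 0 counts. The share of Rps19 in the sum of the pair ran between 2.10% and 99.9% over cerebellum libraries, between 18.8% and 99.5% in hippocampus, between 30.7% and 96.4% in amygdala and from 47.5% up to the whole sum in anterior cortex.

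The sum of Rps19 and Rps19l2 varied less than Rps19 alone in each region. Its coefficient of variation was 30.1% in hippocampus, against 76.6% for Rps19, and 32.2% in cerebellum, against 59.8%. In hippocampus the sum averaged 91.3 ± 32.4 CPM in blast and 69.9 ± 11.3 CPM in sham libraries, where Rps19 alone averaged 68.5 ± 47.8 CPM in blast and 21.0 ± 7.7 CPM in sham libraries. In cerebellum the sum averaged 91.4 ± 27.6 CPM in blast and 69.4 ± 24.0 CPM in sham libraries, where Rps19 alone averaged 76.5 ± 40.1 CPM in blast and 24.5 ± 14.6 CPM in sham libraries. A two-sided exact permutation test of log2 CPM (smallest possible p 0.0079) gave p = 0.0476 for Rps19 and 0.246 for the sum in hippocampus, and 0.0159 for Rps19 and 0.190 for the sum in cerebellum. In amygdala the exact p was 0.897 for Rps19 and 0.206 for the sum, and in anterior cortex 0.484 and 0.294. Adjusted over these 8 comparisons, the smallest exact p was 0.127. With 5 libraries a group, no single one of the 8 could reach an adjusted p of 0.05, so the adjusted values do not show that the groups were alike. The sum was added after the values were seen.

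**Figure D3:**
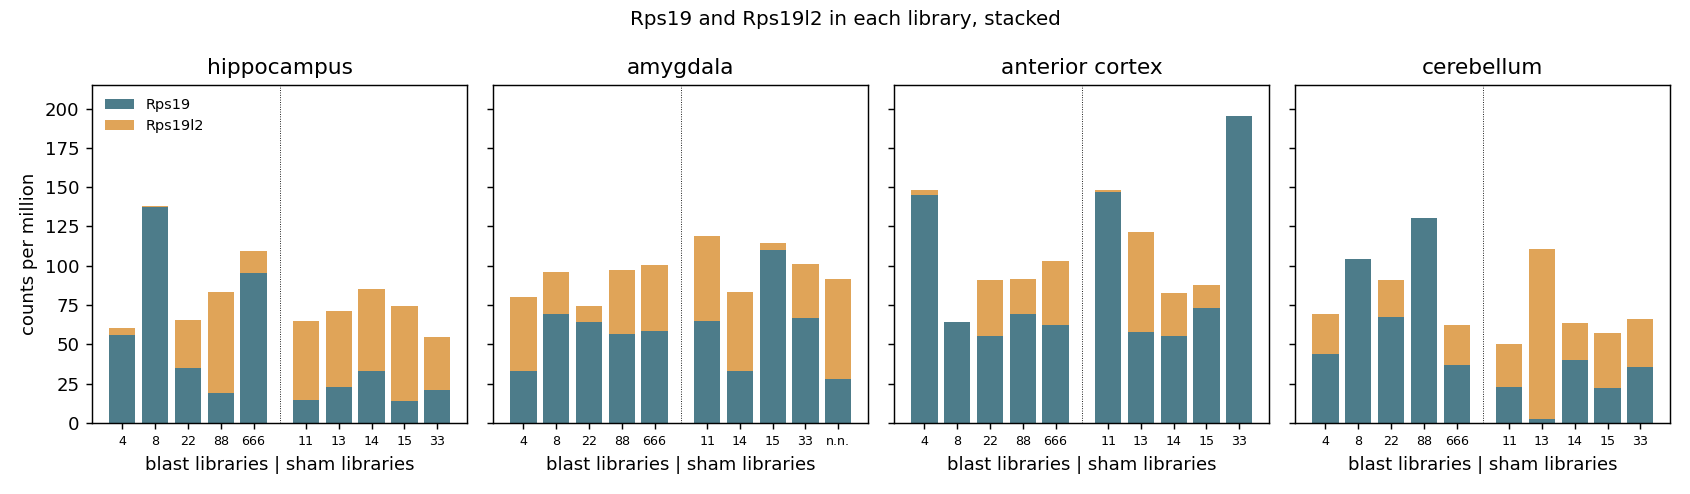
CPM of Rps19 (lower part of each bar) and Rps19l2 (upper part) in every library, with blast libraries left and sham libraries right of the dotted line in each region. The height of a bar is the sum of both genes. The division differs between libraries, with nearly all of the sum on Rps19 in cerebellum blast B8 and B88 and on Rps19l2 in cerebellum sham S13.

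Rps27a showed the same pattern in amygdala and cerebellum between its identifiers on chromosome 14, with introns, and on chromosome 5, a one-exon model. In amygdala blast B4 the chromosome 14 row had 188 CPM and the chromosome 5 row 28.5 CPM, while in amygdala sham S33 they had 70.0 and 191 CPM. The sum of both had a coefficient of variation of 7.85% in amygdala and 9.46% in cerebellum, where the single rows had 33.3% to 49.6%. The sum had 32.2% in hippocampus, where the single rows had 43.8% and 44.5%, and 18.3% in anterior cortex, where they had 43.2% and 24.6%. A sum of unrelated rows of similar level also varies less than each row, so the hippocampus values do not show rows that ran opposite. The sum averaged 243 ± 19 CPM in blast and 247 ± 19 CPM in sham amygdala libraries, and 236 ± 24 CPM in blast and 238 ± 21 CPM in sham cerebellum libraries. The chromosome 14 row alone averaged 121 ± 54.2 CPM in blast and 78.6 ± 18.8 CPM in sham amygdala libraries. Rps10 and the one-exon Rps10l1, which RefSeq calls a pseudogene, also had a steadier sum in amygdala, with a coefficient of variation of 5.53% against 11.4% for Rps10 and 40.9% for Rps10l1, and their sum averaged 163 ± 9 CPM in both treatments. In hippocampus and anterior cortex the sum was little steadier than Rps10 (29.2% against 34.4%, and 26.8% against 28.8%). In cerebellum it was less steady, with 10.3% against 6.29% for Rps10.

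The identifiers of Rpl7a, a large-subunit protein, were both low in most libraries. ENSRNOG00000047737 had 88.1 CPM in hippocampus blast B4, where ENSRNOG00000049097 had 0.214 CPM, and 38.6 CPM in anterior cortex sham S11, where the other had 1.05 CPM. Their sum had a coefficient of variation of 161% in hippocampus. Rplp2, a stalk protein, was between 0.579 and 1.64 CPM in hippocampus blast B4, B8, B22 and B88 and at 41.8 CPM in blast B666, against 0.582 CPM in sham S15 and 20.5 to 81.1 CPM in the other sham libraries. In cerebellum Rplp2 was at 0.788 CPM in blast B4 and between 31.5 and 38.99 CPM in the other blast libraries, against 27.8 to 59.5 CPM in sham libraries. Rplp2 was low in blast B4 in all 4 regions (0.788 to 1.74 CPM) and higher in sham S14 in all 4 (21.9 to 81.1 CPM), while blast B8 was low in hippocampus and amygdala (1.21 and 2.45 CPM) and high in anterior cortex and cerebellum (36.9 and 35.5 CPM). Log2 fold changes of Rplp2 had standard errors up to 1.19, and none had an unadjusted p under 0.05.

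The second kind of swing followed the title number. For each of 79 members, the share of the spread within groups that went with the number over regions was computed. It was 26.5% for the median gene of all 16378 and 49.5% for the gene at the 95th percentile. Of the members, 6 lay above that percentile: Rpl17 (93.0%), Rpl30 (91.2%), Rps10l1 (82.2%), Rpl10l (71.8%), Rpl39l (64.7%) and Rps2 (49.7%). Rps19 (25.4%), Rpl8 (21.96%) and Rps6 (17.2%) were near or below the median gene. Rpl17 and Rpl30 are named here after their values were seen.

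Rpl17, a large-subunit protein on chromosome 18, fell into the same 3 groups of title numbers in every region, with levels that shifted between regions. Values are given here in CPM scaled over all 40 libraries. In hippocampus it had 172, 113, 106, 195 and 61.0 CPM in blast B4, B8, B22, B88 and B666, against 109, 116, 299, 60.6 and 111 CPM in sham S11, S13, S14, S15 and S33. In cerebellum it had 242, 161, 164, 234 and 77.8 CPM in blast, against 153, 173, 222, 93.1 and 150 CPM in sham libraries. Numbers B4, B88 and S14 were the highest and B666 and S15 the lowest in all 4 regions, and both kinds of number include blast and sham. In amygdala Rpl17 had 203, 160, 154, 205 and 82.0 CPM in blast B4, B8, B22, B88 and B666, against 165, 228, 72.8 and 175 CPM in sham S11, S14, S15 and S33 and 156 CPM in the unnumbered sham library.

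A search covered the 5546 genes whose highest CPM lay within a fixed factor of that of Rpl17. Among them RGD1359290, a protein-coding gene on chromosome 10, had the steadiest sum with Rpl17. It had 4.47 to 10.99 CPM in numbers B4, B88 and S14, 37.1 to 66.7 CPM in numbers B8, B22, S11, S13 and S33 and the unnumbered library, and 72.5 to 141 CPM in numbers B666 and S15. The spread of the sum was 56.7% of that of Rpl17 alone, and r between both genes was -0.78 over the 40 libraries, which share numbers and scaling. The search was run for 8 members after their values were seen, over 5546 to 10857 candidates each. For Rps19 it returned Rps19l2, with a sum at 71.4% of its own spread. For Rpl30, Rps10l1, Rps6, Rplp2, Rpl8 and Rps9 it returned genes of other families, with sums at 72.9% to 90.5%.

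Rpl30, here a one-exon row on chromosome 10, had its lowest numbered library in number S15 in all 4 regions, with 15.6 CPM in hippocampus, 17.6 in amygdala, 19.99 in anterior cortex and 24.4 in cerebellum. Number S33 was the highest in 3 regions, with 84.2 CPM in amygdala, 98.3 in anterior cortex and 85.2 in cerebellum. Rps10l1 was between 30.9 and 50.5 CPM in blast B4, B22 and B88 in every region, and between 7.18 and 13.1 CPM in blast B666. In sham libraries it was lower in number S33 (6.21 to 11.4 CPM) than in numbers S11 and S13 (15.2 to 28.4 CPM). In each region blast B4, B22 and B88 lay above every sham library, while blast B666 and blast B8 (9.48 to 25.3 CPM) lay inside the sham range or below it.

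**Figure D4:**
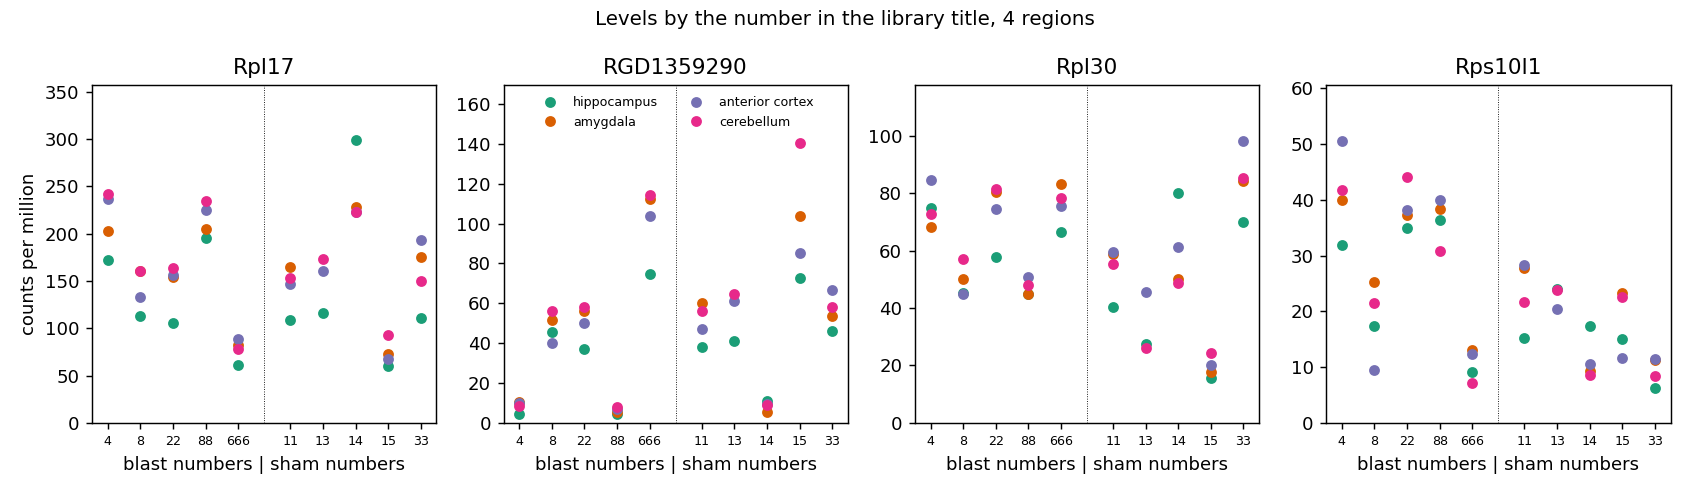
CPM, scaled over all 40 libraries, of Rpl17, RGD1359290, Rpl30 and Rps10l1 by the number in the library title, with blast numbers left of sham numbers. Each point is 1 library and its colour is the region; the unnumbered library is left out. Numbers B666 and S15 are low for Rpl17 and high for RGD1359290 in all 4 regions, and number S15 is low for Rpl30.

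Levels of the members also differed between regions. In the sham libraries, cerebellum was compared with the mean of hippocampus, amygdala and anterior cortex, a comparison in which 9885 of 15695 genes passed an adjusted p of 0.05, 30.9% higher and 32.1% lower in cerebellum. Of 78 members tested, 4 were higher and 19 lower in cerebellum, shares below those of all genes in both directions. The median log2 difference of the members was -0.25, against 0.00 over all genes. By subunit, 3 of 41 large-subunit members were higher and 8 lower, 0 of 27 small-subunit members higher and 8 lower, and 2 of 3 stalk proteins lower. Of 7 paralogs or extra copies, 1 was higher and 1 lower. Of the 72 members tested that have the same gene model in all tables, 4 were higher and 15 lower, with a median of -0.23. Tissue and the separate making of the cerebellum table cannot be told apart in this comparison.

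The stalk proteins Rplp1 and Rplp0 and the small-subunit protein Rps4x had the smallest p. Rplp1 averaged 147 ± 10.6 CPM in sham cerebellum, against 338 ± 164 CPM in hippocampus, 360 ± 59.3 CPM in amygdala and 327 ± 110 CPM in anterior cortex. Every cerebellum sham library lay below every sham library of the other regions, and the log2 difference was -1.21 ± 0.21 (edgeR adjusted p = 3.9e-05). Rplp0 averaged 263 ± 18.4 CPM in sham cerebellum, against 369 ± 92.3, 431 ± 37.0 and 417 ± 66.9 CPM in hippocampus, amygdala and anterior cortex, a log2 difference of -0.62 ± 0.11. The X-linked Rps4x averaged 107 ± 10.1 CPM in sham cerebellum, against 156 ± 40.6, 177 ± 11.1 and 164 ± 25.9 CPM, also a log2 difference of -0.62 ± 0.11. Its gene model has 1277 bases in the cerebellum table, against 1317 bases in the others. These 3 were the only called members whose cerebellum and forebrain sham libraries did not overlap. The share of all genes without overlap was not computed, so this count does not set the members apart. The other 2 small-subunit members with the smallest p were Rps2 (-0.94 ± 0.20) and Rps24 (-0.53 ± 0.13). Rpl41 (-0.87 ± 0.25), Rpl11 (-0.47 ± 0.13) and Rps18l1 (-0.56 ± 0.15) were also lower, the last with a model of 456 bases in the cerebellum table, against 2490 bases in the others, and the third stalk protein, Rplp2, had a higher estimate that was not called (0.86 ± 0.69).

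In the other direction, Rpl24, a large-subunit protein, averaged 173 ± 21.1 CPM in sham cerebellum, against 113 ± 32.4, 134 ± 9.61 and 132 ± 14.01 CPM in hippocampus, amygdala and anterior cortex, a log2 difference of 0.47 ± 0.11 (edgeR adjusted p = 0.000727). Rpl7l1 averaged 33.3 ± 2.55 CPM in sham cerebellum, against 26.1 ± 4.04, 23.4 ± 1.08 and 29.5 ± 4.15 CPM, a log2 difference of 0.35 ± 0.09. Rpl18 (0.41 ± 0.14) was called higher and lost the call without number S11, S13 or S15. Rpl8 (2.47 ± 0.49) was called higher on the 1 library sham S11 and had 0.36 and an adjusted p of 0.253 without it. Among the members lower in cerebellum, Rps19 had -1.23 ± 0.44, and its sham cerebellum level of 22.6 ± 13.6 CPM was close to that of hippocampus (21.4 ± 8.04 CPM), with 60.8 ± 33.04 CPM in amygdala and 114 ± 67.9 CPM in anterior cortex.

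Of the 23 called members, 10 kept the call under all 11 alternative settings and 13 lost it under at least 1. With library totals in place of composition factors, a scaling that moved the median of all genes by 0.17, 13 members were called and the median of the members was -0.08. Leaving out a title number gave 13 called members without S33, 14 without S11 and up to 33, without S15. The shares of all genes called under these settings are not given here, so this range is not shown to be particular to the members. The blast libraries were not used in this comparison, and there 21 of the 23 called members had the same sign between cerebellum and forebrain; Rpl8 and Rps19 did not. In blast libraries the log2 difference was -1.11 for Rplp1 and -0.49 for Rps4x.

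**Figure D5:**
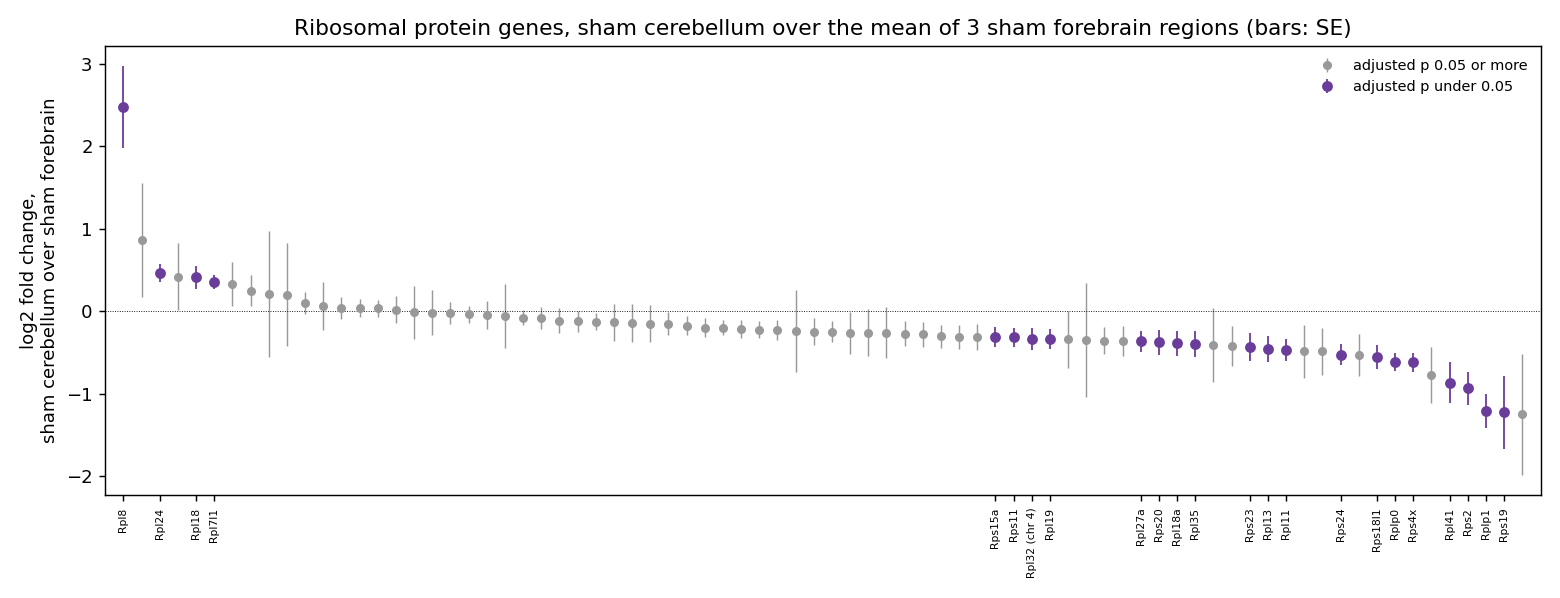
Log2 fold change of sham cerebellum over the mean of the 3 sham forebrain regions for the 78 ribosomal protein genes tested, in order of size. Points are estimates and bars are standard errors, and purple points, named on the axis, have an adjusted p under 0.05. There are 4 purple points above 0 and 19 below it, Rplp1 at -1.21 among them, and the wide bars belong to members that swing between libraries.

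Other genes of protein synthesis were set beside the members, from lists chosen with earlier results of these data known. Of 73 mitochondrial ribosomal proteins tested, 0 were called in any region by edgeR. In amygdala 66 of them had a higher and 7 a lower estimate in blast, with a median of 0.12, and 14 were higher and 1 lower at an unadjusted p of 0.05, where 4.22% of all genes were higher and 4.46% lower. Mrpl16 averaged 18.3 ± 0.96 CPM in blast and 14.7 ± 1.04 CPM in sham amygdala (log2 fold change 0.31 ± 0.08, edgeR adjusted p = 0.459). In anterior cortex 65 were higher and 8 lower, with a median of 0.25, and in cerebellum 52 and 21, with a median of 0.04. The sign of the anterior cortex median of the cytosolic members depended on which libraries were kept. Whether this list depended on them too was not tested. In hippocampus 9 were higher and 64 lower, with a median of -0.11, the same lean as the cytosolic members and with the same library, sham S14, in the sham group. In amygdala the cytosolic members leaned the other way, with 31 higher and 48 lower.

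Of 17 elongation factors and other genes whose messenger RNA carries a pyrimidine tract, 0 were called, with medians of -0.05, -0.05, -0.06 and -0.01 in hippocampus, amygdala, anterior cortex and cerebellum. Eef2, which moves the ribosome along the messenger RNA, averaged 1497 ± 80.0 CPM in blast and 1743 ± 217 CPM in sham amygdala (log2 fold change -0.22 ± 0.08, edgeR adjusted p = 0.510), and 1760 ± 246 CPM in blast and 2275 ± 367 CPM in sham anterior cortex (-0.37 ± 0.15, edgeR adjusted p = 0.799). Of 24 genes of ribosome assembly, 20 of mTOR signalling and ribosomal gene transcription and 26 initiation factors, 0 were called in any region, with list medians between -0.07 and 0.06. Fau and Rack1, ribosomal proteins whose names fall outside the rule, were likewise not called.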

How the data were processed

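Rat brain RNA was extracted with Qiazol and RNeasy columns and made into NEBNext Ultra libraries from total RNA, per the labels' protocols. CASAVA is the tool that the submitters' processing notes name; the labels name no aligner, counter, strand setting, annotation or genome build. Each regional table holds whole-number counts per gene as deposited by the authors, their FPKM, a normalized signal and, for blast over sham, their log2 fold change, p-value and adjusted p-value. The deposited signal is the count divided by 1 factor per library for all genes over 100 counts, and the deposited FPKM came out as count over table length and total for 67.1% to 70.7% of genes.

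Counts were tested with edgeR 4.0.16 (filterByExpr, TMM factors, quasi-likelihood F test, Benjamini-Hochberg adjustment over all genes tested, threshold 0.05, R 4.3.3), in 1 fit per region for blast against sham, in 1 fit of 40 libraries with 8 group means for the mean effect and the interaction, and in 1 fit of the 20 sham libraries for cerebellum against forebrain. Standard errors are the fold change divided by the root of F. CPM uses TMM-scaled totals. The blast-against-sham fits of single regions were run on simulated counts, and the other fits were not. DESeq2 1.42.0, limma 3.58.1 voom, other scalings, other filters, removal of the trend with gene length and leaving out libraries were alternatives. The FPKM and signal columns of the unnumbered library (2 columns) were not used. The cerebellum table gives another gene model than the other tables for 602 of 21649 shared identifiers (2.78%) and another name for 4045. The lowest chi-square per gene between libraries of 1 group was 6.64 over 80 pairs, so none was counted as a repeat. Each library holds 11268097 counts or more. Exact permutation tests were used for Rps19 and its sum.

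The members and all lists were chosen with earlier results of these data known. Members were named where the rule of the group names them (Rps19, Rpl8), where they had the 3 smallest p in a direction in a region, the 6 largest ratios of highest to lowest, the 3 highest or lowest levels per length, the 5 smallest p in a direction between sham cerebellum and forebrain, a known paralog, or a call; up to 4 genes were named from other lists. Promoters came from RefSeq (GRCr8), matched by symbol and chromosome. Intervals for single shares were not computed, and counting error is small beside the spread between libraries.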

Additional observations from a re-analysis of the deposited data

Results flagged for a closer look

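In groups of 5 libraries, a library was looked at again where its gap to the nearest of the others was over 0.71 of the group's range; chance gives this in about 1 in 20 groups. The mean deviation of the members in anterior cortex blast libraries reached 0.835, with blast B8 far below the rest. Over all members 99 of 620 groups passed (15.97%), of which 35 had anterior cortex blast B8 and 30 hippocampus sham S14 as the far library.

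For Rpl8 the far library was blast B88 in hippocampus (0.908), blast B8 in amygdala (0.773) and sham S11 in cerebellum (0.841), each of them high. For Rplp2 it was the high blast B666 in hippocampus blast (0.772), the low sham S15 in hippocampus sham (0.713), the high blast B22 in amygdala blast (0.802) and the low blast B4 in cerebellum blast (0.944). For Rps6 it was the high blast B22 in hippocampus blast (0.793), the high sham S14 in hippocampus sham (0.804) and the low sham S14 in amygdala sham (0.919). Rpl3 in amygdala blast reached 0.906 with the low blast B4.

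Rps19 reached 0.729 in amygdala blast (low blast B4), 0.768 in anterior cortex blast (high blast B4) and 0.792 in cerebellum sham (low sham S13). Rps19l2 reached 0.774 in amygdala sham (low sham S15) and 0.744 in cerebellum sham (high sham S13). Rps27l reached 0.746 in cerebellum blast (high blast B666).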

How the results depend on the processing

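Of 824 values recomputed under alternatives, 791 were labelled as kept. For a single gene this meant the same direction and side of the threshold. For a count it meant a change within a fixed ratio. For a median of the members it meant a shift below the SD of their mean deviation within groups. A median could therefore change sign and still be labelled as kept, as that of hippocampus did. No setting called a member for blast against sham. Genes of any kind called numbered 1 in hippocampus, 6 in amygdala and 5 in cerebellum with DESeq2; in amygdala 1 with the length trend removed and 2 without a filter; and in anterior cortex 34 in the fit of all 40 libraries and 2 without blast B8 and sham S11, S13 and S15. Leaving out 1 library gave 0 to 1 in hippocampus, 0 to 2 in amygdala, 0 in anterior cortex and 0 to 1 in cerebellum. Members with a lower estimate numbered 12 to 71 in hippocampus, 42 to 53 in amygdala, 25 to 50 in anterior cortex and 15 to 49 in cerebellum, and 43 in cerebellum with the length trend removed. In amygdala the direction turned for Rpl8 (-0.20 without blast B8, other libraries left out giving up to 0.88) and for Rps19 (0.035 without blast B4, 0.22 without sham S15, -0.29 to 0.22 over all libraries left out in turn, and 0.014 with limma voom); the cause was not tested.

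For sham cerebellum against forebrain, library totals alone gave 13 called members, leaving out a number gave 13 to 33, and members with 1 gene model in all tables gave 19, a choice made after seeing the data. With the title number as a replicate block, 18 members were called there, and the unnumbered library, a block of its own, added nothing. For these settings the shares of all genes called are not given here. With the block the mean blast effect called 1 gene and 0 members. Same-numbered libraries correlated with a median of 0.07 (57 pairs, 19 over 0.1), and the numbers were not taken as pairs. That correlation is taken over all genes and does not show independence for single genes. For Rpl17, Rpl30 and Rps10l1, 93.0%, 91.2% and 82.2% of the spread within groups went with the number.

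Precision is limited by 5 libraries a group, by near-identical copies, whose reads were not examined, and by the unstated counting.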
